A study of Mus musculus with 27 samples.

Results

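The nuclear genes of the mitochondrial respiratory chain and the ATP synthase were followed across mouse pancreas, islets and neural progenitors in which the transcription factor Nkx2.2 was mutated, labelled as deleted, or induced. Members were all rows of the 3 gene count tables whose symbol began with Nduf, Uqcr or Atp5, or with Cox followed by 4 to 8, or was Sdha, Sdhb, Sdhc or Sdhd, without pseudogenes and predicted genes. This gave 100 of 61346 symbols, with 98 rows in the table of embryonic pancreas, 90 in that of islets and 93 in that of progenitors, and 88 symbols in all 3. The rule used symbols and no measured value, but it was chosen with earlier results of these data known. By role they were 7 core subunits, 32 accessory subunits and 8 assembly factors of complex I, 4 subunits of complex II, 8 of complex III, 21 of complex IV including Cox7a2l, Ndufa4 and Ndufa4l2, and 17 of complex V. Atp5s, Atp5sl and Cox4nb also matched the rule, and Cox4nb, which was in the islet table only, is no subunit of the chain.

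Whole pancreas was taken from embryos at E15.5 (embryonic day), with 3 control libraries and 4 with a mutation in the SD domain of Nkx2.2 (SDmut). Islets at 8 weeks gave 2 control libraries and 3 with the SD mutation in beta cells (betaSDmut), and islets at 4 weeks gave 2 control libraries and 2 labelled as lacking Nkx2.2 in beta cells (betaKO). The islet comparisons thus differ in genotype and in age together, and a difference between their effects cannot be assigned to either. The islet samples at 4 weeks are labelled genomic DNA, although their counts are deposited with those of the RNA libraries. Progenitors were grown for 4 days from mouse embryonic stem cells that carry a doxycycline-inducible transgene. They comprised 3 libraries of the iNkx2.2 line without doxycycline (pMN, motor neuron progenitors), 3 of the same line with 1 µg/ml doxycycline for about 16 h, which induces FLAG-tagged wild-type Nkx2.2, and 2 of the iSDmut line with doxycycline. The pMN controls thus match iNkx2.2 in line but not in drug, and iSDmut neither in line nor in drug. A difference of iNkx2.2 from pMN can therefore not be assigned to Nkx2.2 or to doxycycline alone. The Cre driver of the islet mice, and whether their controls carry it, are not given in the sources used here. Nkx2.2 binding was measured by chromatin immunoprecipitation and sequencing (ChIP-seq) with 2 replicates in MIN6, an insulin-producing line of mouse beta cells. Nothing in the labels says which libraries came from separate animals or cultures, so the tests measure the spread between libraries.

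The respiratory chain moves electrons from food through 4 protein complexes of the inner mitochondrial membrane. Complex I (NADH dehydrogenase) and complex II (succinate dehydrogenase) feed electrons in, complex III passes them to cytochrome c, and complex IV (cytochrome c oxidase) hands them to oxygen. Complexes I, III and IV pump protons, and complex V, the ATP synthase, uses the proton gradient to make ATP. In beta cells this ATP closes potassium channels and so couples glucose to insulin release. Core subunits of complex I carry its redox centres, accessory subunits surround them, and assembly factors act while the complex is built. Some subunits of complex IV exist as copies encoded by separate genes, among them Cox6a1, the widely expressed form, and Cox6a2, the form of heart and skeletal muscle.

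Each library held 38447596 to 41840638 counts in embryonic pancreas, 12398041 to 32385406 in islets and 17757991 to 46840701 in progenitors. Levels are CPM, read counts relative to the TMM-scaled size of the library, unless FPKM, which is per gene length, is named, and the 3 count tables were scaled separately. A gene is called where its adjusted p over all genes tested was under 0.05 (edgeR quasi-likelihood test, Benjamini-Hochberg adjustment). The log2 fold change of Nkx2-2 itself was -0.18 in the libraries labelled betaKO (edgeR adjusted p = 0.779), so the level of the gene did not check that label. It was 5.25 in iNkx2.2 and 4.72 in iSDmut against pMN. Ins2 was between 107500 and 167200 CPM in every islet library. Of the progenitor markers, Olig2 was between 200.2 and 284.3 CPM in pMN and at most 10.5 CPM in iNkx2.2.

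In islets most respiratory chain genes stayed close to their controls, and 4 members passed the test at 8 weeks. Among them Cox6a2, the muscle copy of a complex IV subunit, fell and Ndufa4 and Ndufa1 rose in betaSDmut. At 8 weeks 4 of 83 members tested were called, against 7.94% of all 15413 genes. At 4 weeks 1 of 83 was called, against 1.56% of all 14942 genes. DESeq2 called 9 members at 8 weeks (12.1% of its genes) and 3 at 4 weeks (5.39%), and a fit with the replicate number called 2 (4.91%) and 1 (1.76%). The median log2 fold change of the members was 0.08 at 8 weeks (0.01 over all genes) and 0.07 at 4 weeks (-0.00 over all genes). At 8 weeks 58 members had a positive and 25 a negative log2 fold change, and 80 of 83 were within 0.5 of zero. At 4 weeks the numbers were 54, 29 and 80. All betaSDmut libraries were above both controls for 37 members (23% of all genes) and below them for 8 (22.7% of all genes). Both libraries labelled betaKO were above both controls for 26 members (23.2% of all genes) and below them for 15 (24.3% of all genes). The rows of Cox6b2, Cox7a1, Cox7b2, Cox8b, Cox8c, Sdhd and Uqcr11 were too low to test in islets.

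**Figure D1:**
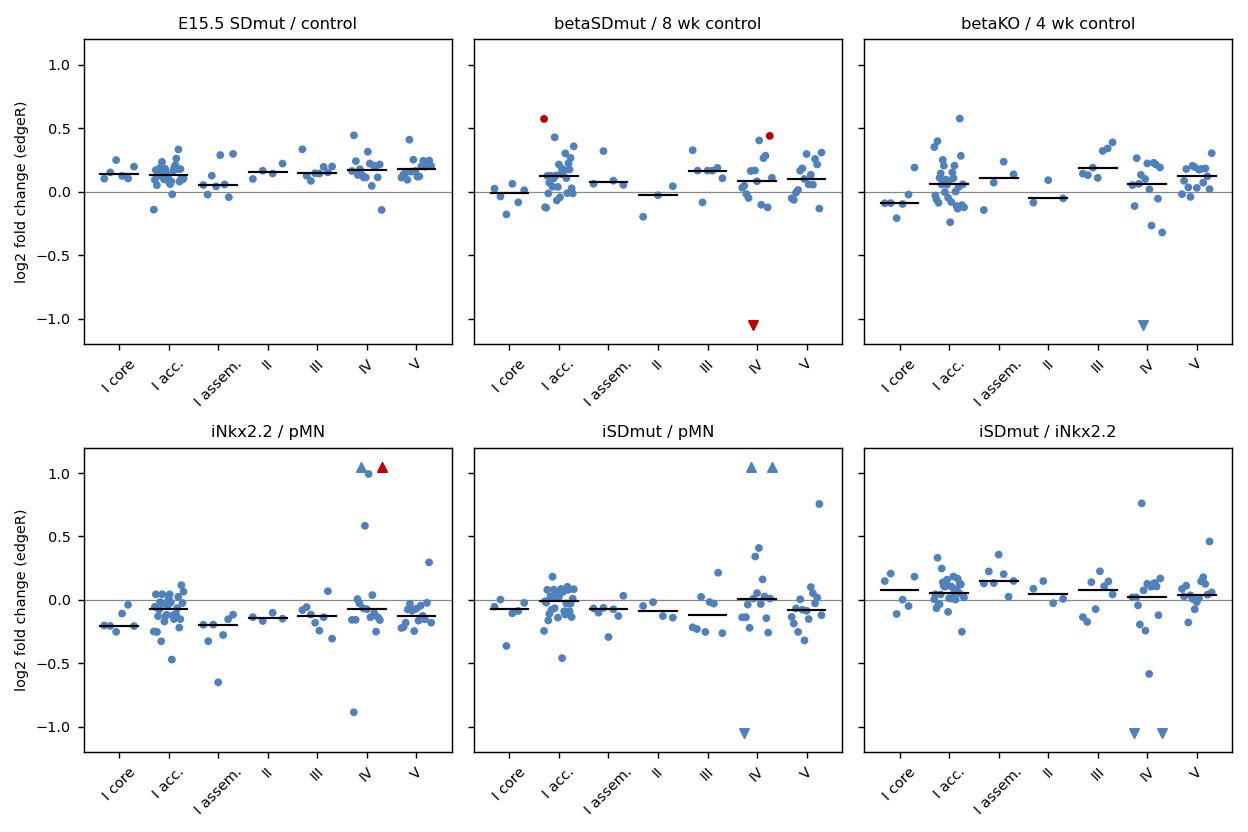
Log2 fold change (edgeR) of the members reported, by complex, in the 6 comparisons. Points are genes, red where the adjusted p was under 0.05, triangles are values past 1 in either direction, black bars are medians of the points drawn, and IV includes Cox7a2l, Ndufa4 and Ndufa4l2. Most members lie within 0.5 of zero in all 6 panels, and the downward triangle under IV in the panel of betaSDmut is Cox6a2.

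Per gene length, the members with the highest mean FPKM in 8-week controls were Cox8a, a small subunit of complex IV, with 423, Atp5k with 382, Atp5e with 375 and Atp5b, the catalytic beta subunit of complex V, with 362. In pMN they were Atp5b (908), Cox7b (589) and Atp5a1 (437). Cox7b was at 106.7 to 129.2 CPM in pMN, while in 8-week controls its mean FPKM was 62.7 at 45.72 and 45.24 CPM. Whether its rank in pMN shows its level was not tested. Cox4i1, at 232.9 to 251.1 CPM in pMN, had no FPKM there and was not ranked.

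Among accessory subunits of complex I, Ndufa1, which is needed for its membrane arm, rose at 8 weeks. It was at 44.19 and 44.94 CPM in controls and at 57.25, 67.7 and 74.54 CPM in betaSDmut, without overlap (log2 fold change 0.57, SE 0.124, edgeR adjusted p = 0.0484). The call was lost without either control or without betaSDmut library 2 or 3 (edgeR adjusted p = 0.0549 to 0.291). At 4 weeks its controls held 55.49 and 62.68 CPM and the libraries labelled betaKO 79.37 and 71.27 CPM, also without overlap, but the test was not passed (0.35, SE 0.107, edgeR adjusted p = 0.214). Ndufc2, another accessory subunit, was at 42.79 and 42.62 CPM in 4-week controls and at 66.41 and 60.89 CPM in the libraries labelled betaKO, 1.49 times as high (0.58, SE 0.095, edgeR adjusted p = 0.0600). DESeq2 called it (adjusted p = 0.00134), as did the authors' deposited table. At 8 weeks Ndufc2 held 40.23 and 41.21 CPM in controls and 46.76, 46.38 and 45.26 CPM in betaSDmut, a smaller step of 0.17 (edgeR adjusted p = 0.157). The difference between the effects of betaSDmut and betaKO was -0.40 (95% interval -0.59 to -0.20, edgeR adjusted p = 0.120). Ndufv3, an accessory subunit of the NADH-binding arm, went the other way in the islet comparisons, with 43.9 and 47.15 CPM against 55.62, 57.54 and 62.4 CPM at 8 weeks and 47.37 and 48.53 CPM against 44.69 and 43.32 CPM at 4 weeks. The difference between its effects was 0.49 (95% interval 0.26 to 0.71, edgeR adjusted p = 0.0976), so the difference itself was not called. The authors' deposited table calls Ndufv3 higher in betaSDmut. In the test of the difference no member of 83 was called, against 1.21% of 15995 genes, with 4 members under an unadjusted p of 0.05 (13.7% of all genes) and 1 called by DESeq2 (4.17% of its genes) and none with the replicate number (0.844%).

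Of complex II, which also works in the tricarboxylic acid cycle, no subunit was called in islets. Sdha, its flavoprotein, was at 234.4 and 224.9 CPM in 8-week controls and 214.3, 203.5 and 185.3 CPM in betaSDmut (log2 fold change -0.20, edgeR adjusted p = 0.212). The betaSDmut values lay below both controls, without passing the test. Sdhb and Sdhc were between 42.0 and 77.8 CPM in every islet library. In complex III all 7 subunits tested had a positive log2 fold change at 4 weeks (median 0.19), and 6 of 7 at 8 weeks (median 0.17), none of them called by edgeR. The largest at 4 weeks were Uqcrq with 0.39, the hinge protein Uqcrh with 0.34 and the Rieske iron-sulfur protein Uqcrfs1 with 0.32 (edgeR adjusted p = 0.370, 0.154 and 0.190). The authors' deposited table calls Uqcrh and Uqcrfs1 higher in betaKO.

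In complex IV, Ndufa4 and Cox6a2 were called at 8 weeks. Ndufa4, which was named as a complex I subunit and is now counted with complex IV, was at 59.41 and 67.69 CPM in 8-week controls and at 87.98, 85.87 and 85.73 CPM in betaSDmut. The groups did not overlap (log2 fold change 0.44, SE 0.080, edgeR adjusted p = 0.0302). The call was lost without either control or without betaSDmut library 2 (edgeR adjusted p = 0.107 to 0.203). At 4 weeks the controls held 71.04 and 78.08 CPM and the libraries labelled betaKO 86.24 and 83.83 CPM (0.19, edgeR adjusted p = 0.395). Cox7a2l, a factor that joins complexes III and IV into supercomplexes, was at 188.6 and 184.3 CPM in 4-week controls and 147.7 and 162.1 CPM in the libraries labelled betaKO (-0.27, edgeR adjusted p = 0.234).

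Cox6a2 showed the largest fold change of any member at both ages. In 8-week controls it was at 101.5 and 78.48 CPM, and in betaSDmut at 15.74, 20.24 and 9.204 CPM, 6.02-fold lower with no overlap (log2 fold change -2.59, SE 0.315, edgeR adjusted p = 0.0124). At 4 weeks the controls themselves differed, at 3.033 and 24.06 CPM, and the libraries labelled betaKO held 0.651 and 0.390 CPM, from 11 and 5 counts. All were below the controls, but edgeR did not call the gene (-4.63, SE 1.47, adjusted p = 0.317), while DESeq2 did (adjusted p = 0.0144). The difference between the effects of betaSDmut and betaKO was 2.01 (95% interval -1.25 to 5.26, edgeR adjusted p = 0.670). At 8 weeks the call was lost without either control or without betaSDmut library 1 (edgeR adjusted p = 0.0506 to 0.127), with log2 fold changes from -2.85 to -2.32 over the libraries left out in turn.

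Cox6a1, the widely expressed copy, was at 65.5 to 85.5 CPM in all 9 islet libraries and was not called. Per gene length, Cox6a2 made up 48.5% and 40.5% of the summed FPKM of both copies in 8-week controls and 12.3%, 13.9% and 6.78% in betaSDmut. It made up 2.19% and 16.8% in 4-week controls and 0.455% and 0.177% in the libraries labelled betaKO. Of 16 skeletal muscle markers, Ckm, Myl1, Tnnt3 and Myh8 were at most 0.239 CPM in every islet library. Others were higher, with Neb at 1.134 to 6.703 CPM, Actn2 at 0.1909 to 9.421 CPM and Acta1 at 0.7806 to 3.297 CPM. Of the 16, 5 could be tested and 2 rose at 8 weeks. The summed level of all 16 was 5.764 to 7.397 CPM in 8-week controls and 13.6 to 18.6 CPM in betaSDmut. The part of muscle cells in the level of Cox6a2 was not tested. The gene lies on the minus strand at chr7:128205435-128206387, inside Itgad, an integrin gene on the plus strand at chr7:128154376-128223816. Itgad moved with it, at 8.83 and 8.19 CPM in 8-week controls and 1.12, 2.07 and 0.689 CPM in betaSDmut (log2 fold change -2.73, SE 0.414, edgeR adjusted p = 0.0198). The use of strand in counting is not given in the sources used here, so reads of the 2 genes cannot be told apart.

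**Figure D2:**
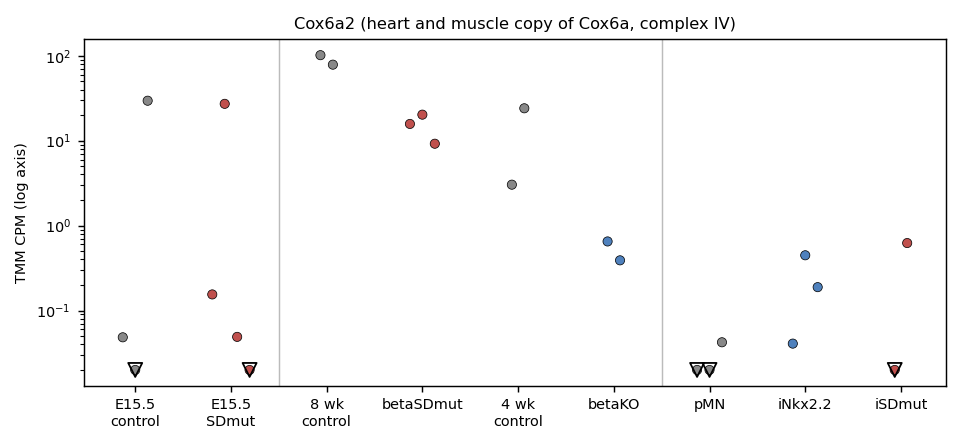
CPM of Cox6a2 (log axis) in each of the 24 RNA libraries. Points are libraries, and open triangles mark values at or under 0.02 CPM drawn at that level. Cox6a2 is highest in the 8-week controls, lower in betaSDmut, and in 1 library of each embryonic group far above the rest of that group.

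Other copies of complex IV subunits stayed low in islets. Cox4i2, the lung form and hypoxia-responsive copy of Cox4, was at 1.08 to 2.03 CPM, while Cox4i1 was at 83.0 to 121.1 CPM. Cox6b2, Cox7b2, Cox8b and Cox8c, copies known from testis or muscle, were at most 0.597 CPM. Cox7a1, the heart form of Cox7a, was at most 0.303 CPM except in library 2 labelled betaKO with 2.73 CPM. For several members the count table and the FPKM table of islets did not match. Uqcr11 had no count in any islet library, Sdhd at most 0.149 CPM and Cox7a2 at most 0.916 CPM, yet their FPKM was 81.9 to 147.3, 88.0 to 131.4 and 104.9 to 151.1. Their islet counts are therefore not read as levels. Ndufs5, an accessory subunit of complex I, was the reverse, at 26.5 to 36.2 CPM with an FPKM near 0. Ndufa6 was at 5.79 to 8.624 CPM with an FPKM of 143.5 to 208.8. Ndufa8 was at 2.297 to 4.835 CPM with an FPKM of 53.07 to 72.89. Both were tested and remain in the counts and medians of the members. In progenitors Atp5l held 2.498 to 5.66 CPM, against 69.8 to 126.6 CPM in the other tissues. Ndufs5 and Ndufb4 were low in progenitors too, at 0.381 to 0.8349 CPM and 1.176 to 2.548 CPM. In islets Ndufb4 was at 22.19 to 32.32 CPM. Whether these rows show low levels or a fault of counting was not tested. The 3 genes for the c subunit of the ATP synthase rotor, which encode the same mature protein, were all expressed, and none was called. Atp5g1 was at 46.6 to 69.0 CPM, Atp5g2 at 74.8 to 110.7 CPM and Atp5g3 at 102.7 to 156.5 CPM in islets. In progenitors Atp5g3 was at 260.3 to 343.6 CPM and Atp5g2 at 36.7 to 48.1 CPM. In complex V 11 of 15 subunits had a positive log2 fold change at 8 weeks (median 0.10) and 13 of 15 at 4 weeks (median 0.12), and none was called. The nearest was Atp5o, part of the stalk, at 38.32 and 40.78 CPM in controls and 48.55, 50.68 and 48.23 CPM in betaSDmut (0.31, edgeR adjusted p = 0.0525).

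Among neighbouring pathways in islets, cell type markers and ribosomal protein genes also differed between the groups. The summed level of 25 acinar markers was 19950 and 53560 CPM in the libraries labelled betaKO and 7858 and 14110 CPM in their controls. It was 1334 to 13590 CPM in betaSDmut and 10120 and 16590 CPM in 8-week controls. That of 7 mesenchyme markers was 351.6 and 433.1 CPM in the libraries labelled betaKO, 208.3 and 227.2 CPM in their controls, 107.1 to 171.2 CPM in betaSDmut and 212.9 and 276.8 CPM in 8-week controls. Of 81 cytosolic ribosomal protein genes tested at 8 weeks all had a positive log2 fold change (median 0.19, 2 called), and 77 of 80 did at 4 weeks (median 0.20, none called). Of 10 beta cell markers, 3 were called lower at 8 weeks and 1 at 4 weeks. Of 6 alpha cell markers, 1 was called higher at 8 weeks (median -0.19) and 2 at 4 weeks (median 0.87). Of 4 delta cell markers, 1 and 2 were called higher, and all 4 were positive at both ages. All 7 endothelium markers were negative at both ages, with none called. The part of these lists in the small positive median of the members, or in changes of single genes, was not tested. Of 18 genes of the tricarboxylic acid cycle list, 2 fell at both ages and none rose. Pcx, pyruvate carboxylase, was at 171.9 and 185.7 CPM in 8-week controls and 92.06, 70.18 and 59.35 CPM in betaSDmut (-1.28, edgeR adjusted p = 0.0171), and it fell by 1.01 at 4 weeks (edgeR adjusted p = 0.0224). Idh2, the mitochondrial NADP-dependent isocitrate dehydrogenase, fell by 0.62 and by 0.72 (edgeR adjusted p = 0.0327 and 0.0331).

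Of the hypoxia-responsive list, 2 of 14 tested rose and 1 fell at 8 weeks, and 1 of 13 rose at 4 weeks. Higd1a, a protein of the inner mitochondrial membrane that binds complex IV, was at 10.64 and 10.79 CPM in 8-week controls and 78.44, 81.49 and 77.29 CPM in betaSDmut (log2 fold change 2.88, SE 0.072, edgeR adjusted p = 0.000278). It was at 9.16 and 9.13 CPM in 4-week controls and 33.62 and 35.13 CPM in the libraries labelled betaKO (1.91, edgeR adjusted p = 0.0147). Its rise was larger in betaSDmut at 8 weeks than in the libraries labelled betaKO at 4 weeks, with a difference of 0.97 (edgeR adjusted p = 0.00802). Ldha, lactate dehydrogenase A, which beta cells normally keep low, was at 9.45 and 11.7 CPM in 8-week controls and 156.8, 201.3 and 207.7 CPM in betaSDmut (4.15, edgeR adjusted p = 0.000868). At 4 weeks it was at 19.69 and 10.74 CPM in controls and at 16.4 and 90.55 CPM in the libraries labelled betaKO, with overlap. Of 21 regulators of mitochondrial genes, 1 was called at 8 weeks, Esrrb, an orphan nuclear receptor at 0.0433 to 2.07 CPM (4.37, edgeR adjusted p = 0.0171), and none at 4 weeks. Nrf1, Gabpa and Esrra, which act on many respiratory chain genes, and Tfam, which acts on mitochondrial DNA, were not called at either age. Ppargc1a, a coactivator, was not called either, at 1.91 and 2.60 CPM against 0.916, 0.95 and 1.63 CPM at 8 weeks (-0.95, edgeR adjusted p = 0.170). At 4 weeks it went the other way, at 1.665 and 1.194 CPM against 2.19 and 7.494 CPM (1.73, edgeR adjusted p = 0.307). The difference between these effects was -2.68 (edgeR adjusted p = 0.168).

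In progenitors the member that rose was Ndufa4l2, a relative of Ndufa4 known as a hypoxia-responsive gene that lowers complex I activity. It was at 1.22, 1.15 and 0.974 CPM in pMN and at 5.14, 7.21 and 6.68 CPM in iNkx2.2. All induced libraries were above all pMN libraries, 5.67-fold in the mean (log2 fold change 2.503, SE 0.402, edgeR adjusted p = 0.00653). It passed the test in each of the 16 alternatives, among them the libraries of sequencing lane 2 alone (2.39, edgeR adjusted p = 0.0175). The 2 iSDmut libraries held 1.23 and 3.95 CPM, 1 of them close to pMN. By their titles they came from lanes 2 and 3, and no other progenitor library came from lane 3. Lane and library can therefore not be told apart for them. Against pMN the log2 fold change was 1.24 (SE 0.442, edgeR adjusted p = 0.158), and against iNkx2.2 it was -1.27 (95% interval -2.10 to -0.43, edgeR adjusted p = 0.256). Some mesenchyme markers moved with Ndufa4l2. The summed level of 7 such genes was 43.3 to 57.4 CPM in pMN, 69.5 to 102 CPM in iNkx2.2, and 15.6 and 64.7 CPM in iSDmut. Of the 6 tested, Pdgfrb and Dcn rose in iNkx2.2 (1.25 and 1.964, edgeR adjusted p = 0.0327 and 0.0371; median of the list 1.17), and all 6 were negative in iSDmut against iNkx2.2 (median -1.14, none called). Col3a1, also in the list, was at 2.115, 3.215 and 2.032 CPM in pMN and 1.449, 2.82 and 1.585 CPM in iNkx2.2. Pdgfra was at 28.55, 9.221 and 24.85 CPM in pMN and 28.25, 9.669 and 25.62 CPM in iNkx2.2, without a rise. Lum, 1 of the markers, was at most 0.302 CPM in every progenitor library. The part of these cells in the rise of Ndufa4l2 was not tested. In islets Ndufa4l2 stayed between 3.81 and 6.03 CPM.

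The member nearest to the test among those with a negative value was Ndufaf4, an assembly factor of complex I. It was at 49.43, 68.55 and 42.5 CPM in pMN and 32.83, 39.57 and 29.85 CPM in iNkx2.2, without overlap. The log2 fold change was -0.65 (SE 0.183, edgeR adjusted p = 0.0552), and in the fit that pairs libraries of 1 number (replicate block) it was -0.64 and called (edgeR adjusted p = 0.0120). In lane 2 alone it was -0.68 (edgeR adjusted p = 0.0855). The iSDmut libraries held 47.6 and 39.69 CPM, within the pMN range or below it (-0.29 against pMN, edgeR adjusted p = 0.472). The 150 bases before its start at chr4:24898083 (plus strand, RefSeq promoter table, GRCm38.p6) are shown because they hold, in capitals, the palindrome known as the binding sequence of NRF1, an activator of respiratory chain genes.
Ndufaf4 chr4:24897933-24898082: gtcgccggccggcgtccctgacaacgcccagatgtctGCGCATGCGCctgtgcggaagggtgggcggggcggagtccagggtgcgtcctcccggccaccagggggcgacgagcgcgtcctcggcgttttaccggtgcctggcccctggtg

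**Figure D3:**
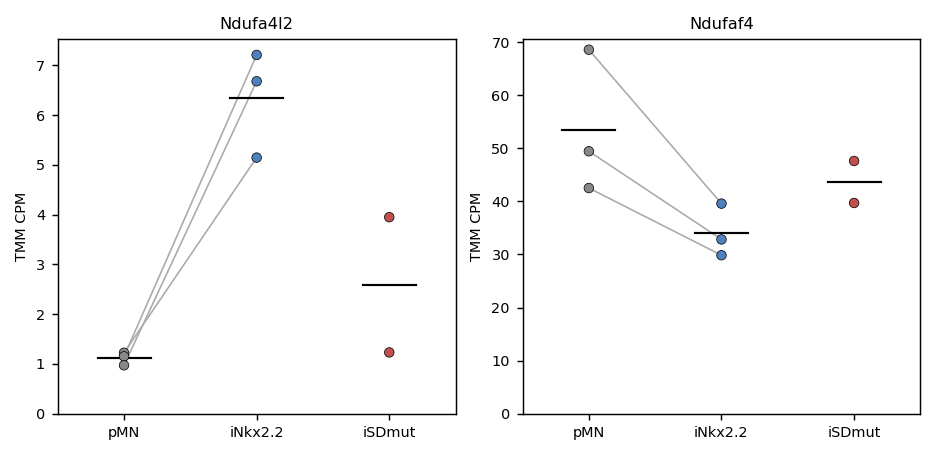
CPM of Ndufa4l2 and Ndufaf4 in the 8 progenitor libraries. Points are libraries, black bars are group means, and grey lines join pMN and iNkx2.2 libraries of 1 replicate number. Ndufa4l2 rises and Ndufaf4 is lower along each of the 3 lines, and the iSDmut points of Ndufa4l2 lie between those groups.

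Of 89 members tested, 1 was called in iNkx2.2 against pMN, against 9.49% of all 15653 genes, and 2 by DESeq2, against 13.9% of its genes. Of the 89, 73 had a negative log2 fold change, with a median of -0.12 (-0.01 over all genes), 12 had all iNkx2.2 libraries below all pMN libraries (15.4% of all genes) and 2 had them above (16% of all genes). By complex the medians were -0.20 for the core of complex I, -0.08 for its accessory subunits, -0.20 for its assembly factors, -0.14 for complex II, -0.13 for complex III, -0.09 for the 14 subunits tested of complex IV without Cox7a2l, Ndufa4 and Ndufa4l2, and -0.13 for complex V. All 7 assembly factors and all 4 subunits of complex II had negative values. Same-numbered pMN and iNkx2.2 libraries deviated together, and with the replicate block 18 members were called, 15 lower and 3 higher, against 29.6% of all genes. Those 15 were Ndufs1, Ndufs3, Ndufs7 and Ndufv2 of the core of complex I, Ndufa5 and Ndufa12, the assembly factors Ndufaf2 and Ndufaf4, Uqcrc1, Uqcrc2 and Uqcrq of complex III, and Atp5a1, Atp5b, Atp5c1 and Atp5o of complex V, with log2 fold changes from -0.64 to -0.17. The 3 higher were Ndufa4l2, Cox6b2 and Cox6a2, the last at less than 1 CPM. Cox6b2, the testis copy of Cox6b, was at 9.80, 6.07 and 6.82 CPM in pMN and 13.62, 10.83 and 9.47 CPM in iNkx2.2, with overlap (0.58, edgeR adjusted p = 0.147 without the block).

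For iSDmut no member was called against pMN (3.54% of all genes) or against iNkx2.2 (0.281% of all genes), with 5 and 2 members under an unadjusted p of 0.05 in edgeR (20.2% and 12.5% of all genes) and 1 and 0 called by DESeq2 (8.41% and 3.22% of its genes). Both iSDmut libraries were above all pMN libraries for 2 members (17.2% of all genes) and below them for 15 (19.2% of all genes), and they were above all iNkx2.2 libraries for 16 (2430 of all 15653 genes) and below them for 4 (16.4% of all genes). The medians were -0.04 and 0.06, beside -0.01 and 0.01 over all genes. All 7 subunits encoded in mitochondrial DNA that were tested had positive values in both comparisons (medians 0.31 and 0.31), with none called. Among them mt-Co1 was at 7096, 9704 and 5867 CPM in pMN and 7002, 8186 and 5004 CPM in iNkx2.2. In iSDmut it was at 7278 and 9433 CPM, with overlap. Its lowest value in pMN and in iNkx2.2 was in their last-numbered library, a number that iSDmut lacks. For mt-Nd2 the iSDmut values (2311 and 3202 CPM) were above all pMN values but overlapped those of iNkx2.2. Ndufs7, the core subunit that carries the last iron-sulfur cluster before ubiquinone, was at 54.6, 51.87 and 46.4 CPM in pMN, 43.12, 42.3 and 42.9 CPM in iNkx2.2 and 40.15 and 39.07 CPM in iSDmut. Both induced groups lay below pMN. Its log2 fold changes were -0.25 and -0.36 (edgeR adjusted p = 0.137 and 0.104), and with the block -0.25 and -0.39 (edgeR adjusted p = 0.0272 and 0.0163). With the block Atp5d, a stalk subunit of complex V, was also called in iSDmut against pMN (-0.23, edgeR adjusted p = 0.0454, background 16.8% of all genes). Against iNkx2.2 the block called no member (3.37% of all genes). The block covered the iSDmut libraries by their numbers too. Their deviations correlated with those of same-numbered pMN libraries by only 0.34 and 0.05, so these numbers are not read as pairs.

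Genes around the chain also lay mostly below pMN in iNkx2.2. Of 75 mitochondrial ribosomal protein genes 69 had a negative log2 fold change (median -0.19, 1 called), as had 83 of 84 cytosolic ribosomal protein genes (median -0.20, none called), and their part in the members' median was not tested. The 7 subunits encoded in mitochondrial DNA that could be tested had a median of -0.01, with none called. Of 21 regulators 2 rose and 2 fell. Ppargc1a was at 0.946, 0.849 and 1.69 CPM in pMN and 3.90, 3.22 and 3.92 CPM in iNkx2.2 (1.64, edgeR adjusted p = 0.0198). Pprc1, a relative of Ppargc1a, was at 151.9, 150 and 180.7 CPM in pMN and 96.5, 93.02 and 129.8 CPM in iNkx2.2 (-0.60, edgeR adjusted p = 0.0290). Nrf1 fell by 0.32 (edgeR adjusted p = 0.0446), and Ppara rose by 1.71 (edgeR adjusted p = 0.0491). Tfam, which packs mitochondrial DNA and starts its transcription, had a log2 fold change of -0.40 (edgeR adjusted p = 0.0720). Of 16 hypoxia-responsive genes 5 fell and none rose, while Ndufa4l2 rose. The glucose transporter Slc2a1 was at 934.3, 781.5 and 864.3 CPM in pMN and 312.3, 404.7 and 250.8 CPM in iNkx2.2 (-1.41, edgeR adjusted p = 0.00687), and Hk2, Egln1 and Pfkfb3 fell by 0.73, 0.49 and 1.04 (edgeR adjusted p = 0.0320, 0.0267 and 0.0243). In the tricarboxylic acid cycle list Suclg2 fell by 0.67 (edgeR adjusted p = 0.0109), 1 of 18 genes.

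In embryonic pancreas no member was called in SDmut, against 0.00534% of all 18723 genes (1 gene), with 5 of 90 members under an unadjusted p of 0.05 in edgeR (2.54% of all genes) and none called by DESeq2 (0.117% of its genes) or in the authors' deposited table. The members lay slightly above their controls as a block, with 85 positive and 5 negative log2 fold changes and a median of 0.15 (0.01 over all genes), all within 0.5 of zero. The medians were 0.15 for the core of complex I, 0.13 for accessory subunits, 0.05 for assembly factors, 0.15 for complexes II and III, 0.18 for complex IV without Cox7a2l, Ndufa4 and Ndufa4l2, and 0.18 for complex V. In the authors' deposited table the median log2 fold change of the members was 0.00028. How those fold changes were estimated is not given in the sources used here. For 3 members all SDmut libraries were above all controls (1.61% of all genes) and for none below (1.97% of all genes). These were Ndufs7, Atp5e and Cox5a. Atp5e, a small stalk subunit of complex V, was at 66.53, 59.64 and 64.53 CPM in controls and 88.14, 69.35, 105.7 and 74.63 CPM in SDmut (0.41, SE 0.150, edgeR adjusted p = 1.00). The highest values at average log2 CPM of 2 or more were those of Atp5e, Uqcr10 with 0.33 and Ndufc1 with 0.33. The lowest values were those of Ndufa4l2 with -0.14, Ndufa1 with -0.14 and Ndufaf7 with -0.04.

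The shift was not shared by all SDmut libraries. The members' median deviation from the mean of the 7 libraries, on a log2 scale, was 0.09, -0.21 and -0.13 in controls and 0.06, -0.10, 0.27 and 0.01 in SDmut, so that control 1 lay above 3 of the 4 SDmut libraries. The sample titles carry a number, of a meaning not given, that controls 1 and 2 share with SDmut 1 and 2, and control 3 with SDmut 3. Within the first of these sets the groups overlapped, while SDmut 3 lay above control 3, and SDmut 4 had no control of its number. With that number as a block the median log2 fold change was 0.16 and no member was called. Without SDmut library 3 the median log2 fold change was 0.08, and without control 1 it was 0.25. The cytosolic ribosomal protein genes moved with the members, at 0.12, -0.22 and -0.15 in controls and 0.12, -0.20, 0.35 and -0.01 in SDmut. Acinar markers did so too, at 0.53, -0.38 and -0.87 in controls and 0.22, -0.74, 0.84 and 0.43 in SDmut. In bulk tissue, more cells of a type and more RNA per cell cannot be told apart, and the part of acinar content in the members' shift was not tested. The 13 subunits encoded in mitochondrial DNA had a median of 0.10, with none called. Of 22 regulators, 18 genes of the tricarboxylic acid cycle and 77 mitochondrial ribosomal protein genes none was called, with medians of -0.01, 0.13 and 0.13.

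**Figure D4:**
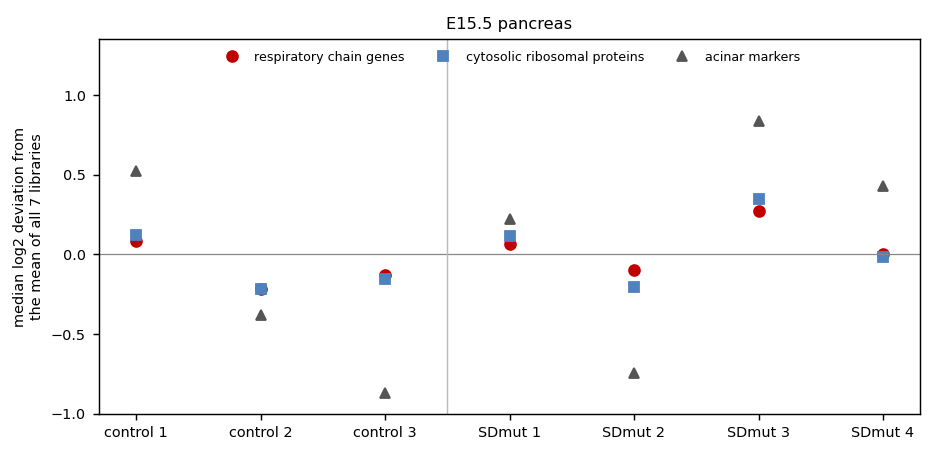
Median log2 deviation of each gene list from the mean of the 7 embryonic pancreas libraries, for respiratory chain genes (90 tested), cytosolic ribosomal protein genes (87) and acinar markers (25). Each point is 1 library. The 3 lists are high in control 1 and SDmut 3 and low in control 2, control 3 and SDmut 2.

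The muscle copies Cox6a2 and Cox8b of complex IV were high in 2 embryonic pancreas libraries. Cox6a2 was at 29.5 CPM in control 3 and 27.1 CPM in SDmut 2, and at most 0.155 CPM in the other 5. Cox8b, the heart and muscle copy of Cox8, was at 2.96 and 3.67 CPM in the same libraries and at most 0.0516 CPM elsewhere. Cox7a1 did not share this pattern, at 5.80 to 14.6 CPM in all 7 libraries. The summed level of 16 skeletal muscle markers was 6774 and 7646 CPM in these libraries and 22.4 to 87.9 CPM in the others. Without both libraries the members' median log2 fold change was 0.18 and again none was called.

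Nkx2.2 binding in MIN6 cells was read from the authors' 6473 final sites (build mm10, the same coordinates as GRCm38). Of 75 members in the authors' deposited table that joins sites to islet genes, 13 (17.3%) had a site, against 26% of all 9971 genes. Within 1000 bp of an annotated transcription start there was a site for 5 of 75 members, 6.67%, against 5.56% of 9580 genes, and within 5000 bp for the same number, against 11.5%. Ndufa5, Uqcrq, Cox7c and Atp5l were among them. The highest-ranked site joined to a member was that of Cox7a2l, rank 72 of 6473 by mean log CPM in the authors' table, 21655 bp upstream of the gene. The site joined to Uqcr10, rank 929, lies inside the gene Ascc2.

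The 101 bases around the sites joined to Cox7a2l and Uqcr10 are shown on the plus strand of GRCm38, as those of the highest-ranked joined site and of a joined site inside another gene. Capitals mark AAGTG, the core known for NK2 factors such as Nkx2.2, and GAGTG, the related form found at more of these sites, on either strand (CACTT and CACTC on the strand shown).
Cox7a2l chr17:83538935-83539035: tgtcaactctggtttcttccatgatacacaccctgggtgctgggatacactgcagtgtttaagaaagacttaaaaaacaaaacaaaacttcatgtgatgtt
Uqcr10 chr11:4675262-4675362: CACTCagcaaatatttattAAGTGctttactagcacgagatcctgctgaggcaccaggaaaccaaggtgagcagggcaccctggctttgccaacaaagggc

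The Uqcr10 window held each of them once and the Cox7a2l window neither. Over all 6473 sites AAGTG was in 22.7% of such windows, against 20.5% of windows 1000 bp upstream, and the related form was in 40.8% against 18%. Of the 13 sites joined to members 3 held the first and 7 the second. GGCAAC, also searched, was in 19% of the windows at all sites against 2.77% upstream, and at 1 of the 13. GAGTG is described by its share at these same sites, so that share is no test of it. A match is a description and not a measured contact.

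The start regions of the members were searched for letters known from mitochondrial genes, on both strands, in the 300 bases around each start in the RefSeq table. Of 100 members 77 had an entry. The letters GCATGCGC, from the NRF1 palindrome and chosen after a first count with the whole palindrome, were at 12 members (15.6%) against 3.05% of all 27025 genes, the ETS core CCGGAAG at 18 (23.4%) against 9.93%, and the YY1 core AAGATGGC at 12 (15.6%) against 3.19%. AAGTG was at 42 (54.5%) against 50% of all genes.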

How the data were processed

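Gene counts for 24 RNA libraries in 3 tables were used as the authors deposited them, and FPKM values and site log2 CPM came from the authors' deposited tables, as did the authors' log2 fold changes and p-values where named; their calls are deposited as scores of -1, 0 and 1. STAR, Cufflinks, DESeq2, edgeR 3.20.9, limma 3.34.9, bedtools 2.17.0 and mm10 are listed in the submitters' processing notes; the role of each is not given in the sources used here.

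Each count table was fitted on all its genes with edgeR 4.0.16 (R 4.3.3; TMM, filterByExpr, robust quasi-likelihood test, Benjamini-Hochberg threshold 0.05); SE is the log2 fold change over the root of F, and 95% intervals are normal ones from it. DESeq2 1.42.0 was an alternative. The fit was tested on simulated data. The members, lists and rules were chosen with earlier results of these data known.

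Named were called members, the 3 highest and 3 lowest where fewer than 6 were called, tissue-restricted copies, Sdha to Sdhd, members joined to a site and the 3 highest in FPKM; others were named after their values were seen. Same-numbered pMN and iNkx2.2 libraries were taken as pairs because the correlations of their deviations were 0.53, 0.51 and 0.57. Replicate numbers of iSDmut and of islets were not read as pairs, though the fits with the replicate block used them as an alternative. 1 member is included in the counts and medians over all members but is not reported by itself here, in text or plots. The ChIP input was not used. Depth sets the counting error of low genes only.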

Additional observations from a re-analysis of the deposited data

Results flagged for a closer look

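In groups of 4 to 10 libraries, a library was singled out where its gap to the nearest of the others was large against the range of the group. Of 41 values tested in embryonic SDmut pancreas, 6 were singled out, where chance gives about 1 in 20, or 2.05. In SDmut library 3, Atp5g3 was at 321 CPM (280 to 283 in the others) and Ndufa4 at 148 CPM (106 to 110). In SDmut library 2, Cox6a2 was at 27.1 CPM (0 to 0.155) and Cox8b at 3.67 CPM (0 to 0.0516), beside the skeletal muscle markers given above. Cox7b2 was at 0.0264 CPM in SDmut library 4 (1 read) and Cox8c at 0.0775 CPM in SDmut library 1 (3 reads), with 0 in the others. Any read among libraries at 0 is singled out in this way, so these last values carry no weight in the count of 6.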

How the results depend on the processing

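At 8 weeks the number of members called was 11 with total library size (median log2 fold change 0.17), 9 by DESeq2, 2 with the replicate block and 0 to 7 with 1 library left out, namely 0 without either control, 7 without betaSDmut 1, 1 without betaSDmut 2 and 3 without betaSDmut 3. At 4 weeks it was 2 with no filter, 3 by DESeq2, 2 in the fit of all islet libraries and 0 to 0 with any 1 library left out, and the median was -0.0054 with total library size and 0.0011 to 0.14 with 1 library left out. In iNkx2.2 it was 2 with no filter, 2 by DESeq2, 18 with the replicate block and 1 to 2 with 1 library left out (2 without pMN 3). In iSDmut against pMN it was 1 by DESeq2, 2 with the replicate block and 0 to 1 with 1 library left out (1 without iSDmut 1), and against iNkx2.2 0 to 1 (1 without iSDmut 2). For the difference between the effects of betaSDmut and betaKO it was 1 by DESeq2, and the median was 0.20 with total library size, where that of all genes was 0.17, and -0.022 to 0.067 with 1 library left out. Sites within 1000 or 5000 bp were found for 6.67% of members. The cause was not tested, other than that leaving out libraries leaves fewer samples. Of 3634 values of named genes, 3577 kept direction and side of the threshold or were called in neither fit, 37 became called, 20 lost the call and 0 called values reversed; 235 values called in neither fit changed sign. Ndufa4 and Ndufa1 at 8 weeks were not called with the replicate block (edgeR adjusted p = 0.0748 and 0.0613), and Cox6a2 not in the fit of all islet libraries (edgeR adjusted p = 0.098). Replicate numbers of islets did not pair the libraries (correlations -0.13 to -0.04).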
